A study of Mus musculus with 5 samples.

Results

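To ask where the transcription factor Pou4f1 sits at 8 genes of neurotrophin and GDNF-family signalling, every region of the Pou4f1 CUT&Tag table that overlapped the body of Bdnf, Ntf3, Ntrk2, Ntrk3, Ngfr, Ret, Gfra1 or Gfra2, or lay within 50 kb of one, was collected. The search gave 10 of the 8038 regions. CUT&Tag directs a transposase to an antibody on chromatin, so that only DNA near the bound protein is tagged and sequenced. E16.5 retinas of wild-type mice, 4 to a pool, were dissociated with papain. The cells were incubated with a rabbit antibody to Pou4f1 (n = 2) or with rabbit IgG as the control (n = 2). The methods do not say whether each library had its own pool. A library made with an antibody to H3K9AC (n = 1) was not analysed here. The retinas were taken whole, and Pou4f1 is made by retinal ganglion cells (RGCs) and not by the other cells of the retina, so the number of cells carrying Pou4f1 and its occupancy per cell cannot be told apart. The labels do not say whether the 2 samples of a group came from separate litters, and p-values measure only the spread between these samples.

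Neurotrophins and the ligands of the GDNF family are secreted survival factors, and each acts on neurons through a receptor kinase at the cell surface. Bdnf signals through TrkB, the product of Ntrk2, and Ntf3 through TrkC, the product of Ntrk3, while Ngfr encodes the low-affinity receptor that all neurotrophins share. Ligands of the GDNF family bind a co-receptor anchored in the membrane, such as those encoded by Gfra1 and Gfra2, which presents them to the kinase Ret. RGCs, the output neurons of the retina, are a classic target of Bdnf. Pou4f1 is a POU-homeodomain transcription factor of RGCs and sensory neurons, and Trk genes are known targets of Pou4f factors in sensory ganglia.

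The 10 regions fell at 5 of the 8 genes. Ntrk3 held 4, all inside its gene model, Bdnf held 2 inside its own, and Gfra1 held 1. Ntrk2 had 2 regions and Ret 1, all of them outside the gene. Ntf3, Ngfr and Gfra2 had no region within 50 kb. Of 21755 protein-coding genes, 53.6% had a region within 50 kb and 28.0% had one in the body, against 5 and 3 of the 8 genes here. None of the 8 had a region with any base within 1 kb of the annotated start of the gene, a position where 23.3% of protein-coding genes had one.

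Before the values, the sequences that separate the regions are given, from the plus strand of mm10. In 4 regions the sequence held the consensus bound by POU-homeodomain factors, searched on both strands as ATNAAT followed by AATT or TATT. The first 4 stretches below, 130 bases each, are centred on that match, which is in capitals.
Ntrk2, before the gene, chr13:58757588-58757717: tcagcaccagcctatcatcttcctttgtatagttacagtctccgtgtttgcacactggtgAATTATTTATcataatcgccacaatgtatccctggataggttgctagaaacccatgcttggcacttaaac
Ntrk3, intron 12, chr7:78269249-78269378: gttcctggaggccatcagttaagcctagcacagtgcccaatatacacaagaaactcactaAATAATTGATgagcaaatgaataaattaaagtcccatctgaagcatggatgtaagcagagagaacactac
Ntrk3, before the Ntrk3-201 start, chr7:78652864-78652993: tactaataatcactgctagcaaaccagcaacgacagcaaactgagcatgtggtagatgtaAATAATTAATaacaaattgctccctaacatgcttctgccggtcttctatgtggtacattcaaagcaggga
Gfra1, intron 5, chr19:58340202-58340331: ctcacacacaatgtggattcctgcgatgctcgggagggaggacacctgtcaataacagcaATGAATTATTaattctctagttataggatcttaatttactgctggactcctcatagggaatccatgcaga
Read along their own strands, the matches were ATAAATAATT at Ntrk2, ATCAATTATT in intron 12 of Ntrk3 and ATTAATTATT before the Ntrk3-201 start, all on the minus strand, and ATGAATTATT on the plus strand at Gfra1. The Gfra1 match is overlapped by a second one on the minus strand, ATTAATAATT at chr19:58340265-58340274.

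The strongest region, in intron 4 of Ntrk3, held no such match. The 300 bases printed here contain, in capitals, the 2 of its 4 places with 1 mismatch to the consensus that lie on the side nearer the start of the gene.
Ntrk3, intron 4, chr7:78471655-78471954: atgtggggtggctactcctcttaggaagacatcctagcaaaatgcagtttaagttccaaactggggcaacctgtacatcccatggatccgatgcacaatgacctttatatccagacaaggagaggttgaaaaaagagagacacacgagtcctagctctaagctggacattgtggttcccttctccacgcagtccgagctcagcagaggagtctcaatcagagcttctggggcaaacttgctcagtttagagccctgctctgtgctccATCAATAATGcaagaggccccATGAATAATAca
Counted from 1 at the 5′ end of the match, the mismatches are T10G at chr7:78471922-78471931 and T10A at chr7:78471943-78471952. The Bdnf regions were of another kind, with many CG pairs, which are in capitals in a stretch from the centre of the first region and in the 120 bases just before the start of the transcript Bdnf-205 in the second.
Bdnf, first region, chr2:109677580-109677709: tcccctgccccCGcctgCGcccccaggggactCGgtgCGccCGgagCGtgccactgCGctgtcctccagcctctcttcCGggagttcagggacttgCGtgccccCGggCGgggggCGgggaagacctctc
Bdnf, second region, chr2:109693443-109693562: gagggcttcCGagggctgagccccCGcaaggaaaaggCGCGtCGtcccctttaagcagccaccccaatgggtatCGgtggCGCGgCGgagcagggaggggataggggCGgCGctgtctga
The region past the end of Ntrk2 lay in a tandem array, of which 3 units in a row are shown with the middle one in capitals.
Ntrk2, past the gene, chr13:59138947-59139054: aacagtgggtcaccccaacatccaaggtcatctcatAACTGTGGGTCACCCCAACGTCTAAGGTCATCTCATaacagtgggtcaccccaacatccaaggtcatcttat

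The values deposited are a coverage-like signal per region, in arbitrary units. Across the whole table the median over regions was 184 and 155 in Pou4f1 replicates 1 and 2, and 4.78 and 7.96 in the 2 IgG libraries. The first of these columns carries the name IgG. The second carries only the name negative, given here as negative control, and was taken as rabbit IgG by inference. IgG was sparse, with 46.2% and 43.2% of regions listed at 0. Signal times length was a whole multiple of a step of the library, within 0.05 of a step, for 99.99% of the values above 0 in Pou4f1 replicate 1 and 100% in the other libraries, and the step was taken here as 1 base covered by 1 read. Among IgG values of at most 165 covered bases the commonest was 160, about what a single pair of reads gives.

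In 10 of the 10 regions the lower of the Pou4f1 values exceeded the higher of the IgG values, which held for 96.5% of the table. With limma on log2(signal + 1) and Benjamini-Hochberg adjustment over all 8038 regions, 7 of the 10 were called higher in Pou4f1 at an adjusted p under 0.05, against 64.8% of all regions, and 0 were called lower, against 0.224%. The authors had called the regions as Pou4f1 peaks with IgG as the control. The direction was therefore largely set by that choice, and the adjusted p-values here and below are no independent test of it. The share called is near that of the table, and so is the median log2 difference, 5.54 over the 10 regions and 5.22 over all. In 4 of the 10 both IgG libraries were listed at 0, against 22.8% of all regions, and no fold is given for these. Over the 6 regions with any IgG signal the median log2 difference was 4.33, compared with 4.68 over the 6203 such regions of the table. An exact permutation test of 2 against 2 libraries cannot give a p below 0.333.

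**Figure D1:**
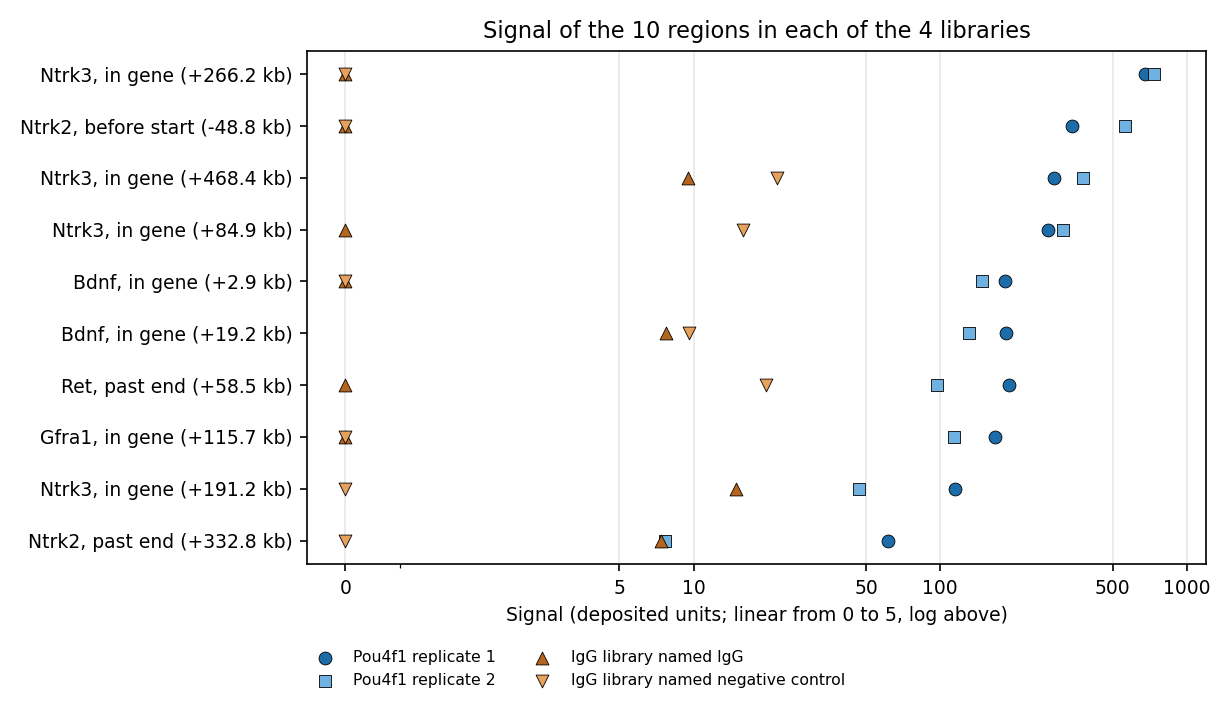
Signal of the 10 regions in the 4 libraries (horizontal axis in deposited units, linear from 0 to 5 and log above), ordered by mean Pou4f1 signal, with the distance of each midpoint from the annotated gene start in kb. Circles and squares are Pou4f1 replicates 1 and 2 and triangles the IgG libraries; the groups lie far apart except in the lowest row, past the end of Ntrk2, where replicate 2 (7.68) nearly meets IgG (7.34).

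Of the ligands, Bdnf (ENSMUSG00000048482.14, chr2:109674700-109727007, plus strand) makes transcripts from a series of alternative starts, each with its own first exon joined to a shared coding exon. Both of its regions lay among these starts, not at the annotated start of the gene. The first, chr2:109677136-109678153, was 1018 bp long, with its midpoint 2.9 kb into the gene and 612 bp from the start of Bdnf-206, which lies 104 bp outside the region. It had a signal of 183 and 147 in Pou4f1 and 0 in both IgG libraries, and was called higher (adjusted p = 0.00222, limma). The second, chr2:109693154-109694633, 19.2 kb into the gene and 1480 bp long, contained the starts of Bdnf-205, Bdnf-203 and Bdnf-204. Of the 11 annotated Bdnf transcripts, 5 started inside it or within 1 kb of its edges. Its signal was 184 and 130 with Pou4f1 and 7.73 and 9.61 with IgG, a log2 difference of 4.02 (SE 0.44, adjusted p = 0.00762, limma). Those IgG values correspond to 150 and 160 covered bases. The 2 Bdnf regions were alike in level, at ranks 4299 and 4555 of 8038 by mean Pou4f1 signal, close to the middle of the table. In both, replicate 1 was above replicate 2. Over all regions at transcription starts, replicate 2 was at a median of 0.701 of replicate 1. Scaling the libraries by their column totals took the second region to a log2 difference of 0.12 (adjusted p = 0.820, limma). Those totals were summed over the called Pou4f1 regions alone, so scaling by them lowers the difference by construction. IgG taken as 4 times shallower took the adjusted p (limma) of the second region to 0.0576. The first region stayed called in both (adjusted p = 0.00547 and 0.00345). Its IgG values of 0 stay at 0 under any scaling, so this stability is no sign of precision.

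Ntf3 (ENSMUSG00000049107.13, chr6:126101412-126166910, minus strand), the ligand of TrkC, had no region within 50 kb. The closest lay 267.6 kb away at chr6:126434520-126435659. Its signal was 57.1 and 218 in Pou4f1 against 68.3 and 114 in IgG, so the groups overlapped there.

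Among the neurotrophin receptors, Ntrk3 (ENSMUSG00000059146.12, chr7:78175959-78738012, minus strand) stood out by number. It spans 562.1 kb, and its 20 annotated transcripts include some that start far upstream of the full-length coding transcript Ntrk3-201, whose start is at chr7:78578408. Of the 567 protein-coding genes of 300 kb or more, 46 (8.11%) had 4 or more regions in the body, as Ntrk3 had, and 194 (34.2%) had none, as Ntrk2 had. None of the 4 regions touched an annotated exon or lay within 1 kb of an annotated start.

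The strongest of all 10 regions was in intron 4 of Ntrk3-201, at chr7:78470911-78472698, 106.6 kb into that transcript. Its signal was 679 and 738 in Pou4f1 and 0 in both IgG libraries, and it was called higher (adjusted p = 0.00222, limma). It ranked 102 of 8038 by mean Pou4f1 signal, 98 in replicate 1 and 138 in replicate 2, and 58 among the 2881 regions on chromosomes away from transcription starts. At 1788 bp it was also long, with 385 regions (4.79%) of that length or more. In the intron 12 region, chr7:78268939-78270187, 308.8 kb into Ntrk3-201, the signal was 290 and 378 against 9.46 and 21.7 in IgG. The log2 difference was 4.43 (SE 0.60, adjusted p = 0.0124, limma), and the region ranked 1164. Further upstream than the Ntrk3-201 start by 74.7 kb, but inside the gene model, the region chr7:78652695-78653588 gave 273 and 314 in Pou4f1 against 0 and 15.9 in IgG. It ranked 1569, with a log2 difference of 6.16 (SE 1.65, adjusted p = 0.0475, limma). Its IgG value of 15.9 corresponds to 160 covered bases, about a single pair of reads. In these 3 regions replicate 2 was above replicate 1, and over all regions away from starts it was at a median of 1.16 of replicate 1.

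The fourth Ntrk3 region, in intron 1 of Ntrk3-201 at chr7:78546185-78547420, was the weakest of the gene. It gave 115 and 47.0 in Pou4f1 against 14.8 and 0 in IgG, a log2 difference of 4.23 (SE 1.69) that did not pass (adjusted p = 0.0935, limma). Its rank was 7342. The mean Pou4f1 signal of the intron 4 region, 709, was thus far above those of the other Ntrk3 regions, 334, 294 and 80.8, and in both replicates it was the highest of the gene. Without replicate 1 or without replicate 2, the adjusted p was 0.156 and 0.163 for the intron 12 region and 0.332 and 0.317 for the one upstream of Ntrk3-201, while the log2 differences were 4.62 and 4.24, and 6.26 and 6.06. In these fits the spread comes from the IgG pair and the lone Pou4f1 library is assumed to vary like it, and 29.4% and 30.9% of all regions were called higher. Scaling by column totals, with the limit given above for Bdnf, took the intron 12 region to a log2 difference of 0.48 (adjusted p = 0.594, limma). It took the upstream one to 3.83 (adjusted p = 0.540, limma). Both calls were also lost with IgG taken as 4 times shallower (adjusted p = 0.0876 and 0.228, limma). The upstream call was further lost with IgG taken as 2 times shallower (adjusted p = 0.111) and with a pseudocount of 0.1 (adjusted p = 0.127).

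**Figure D2:**
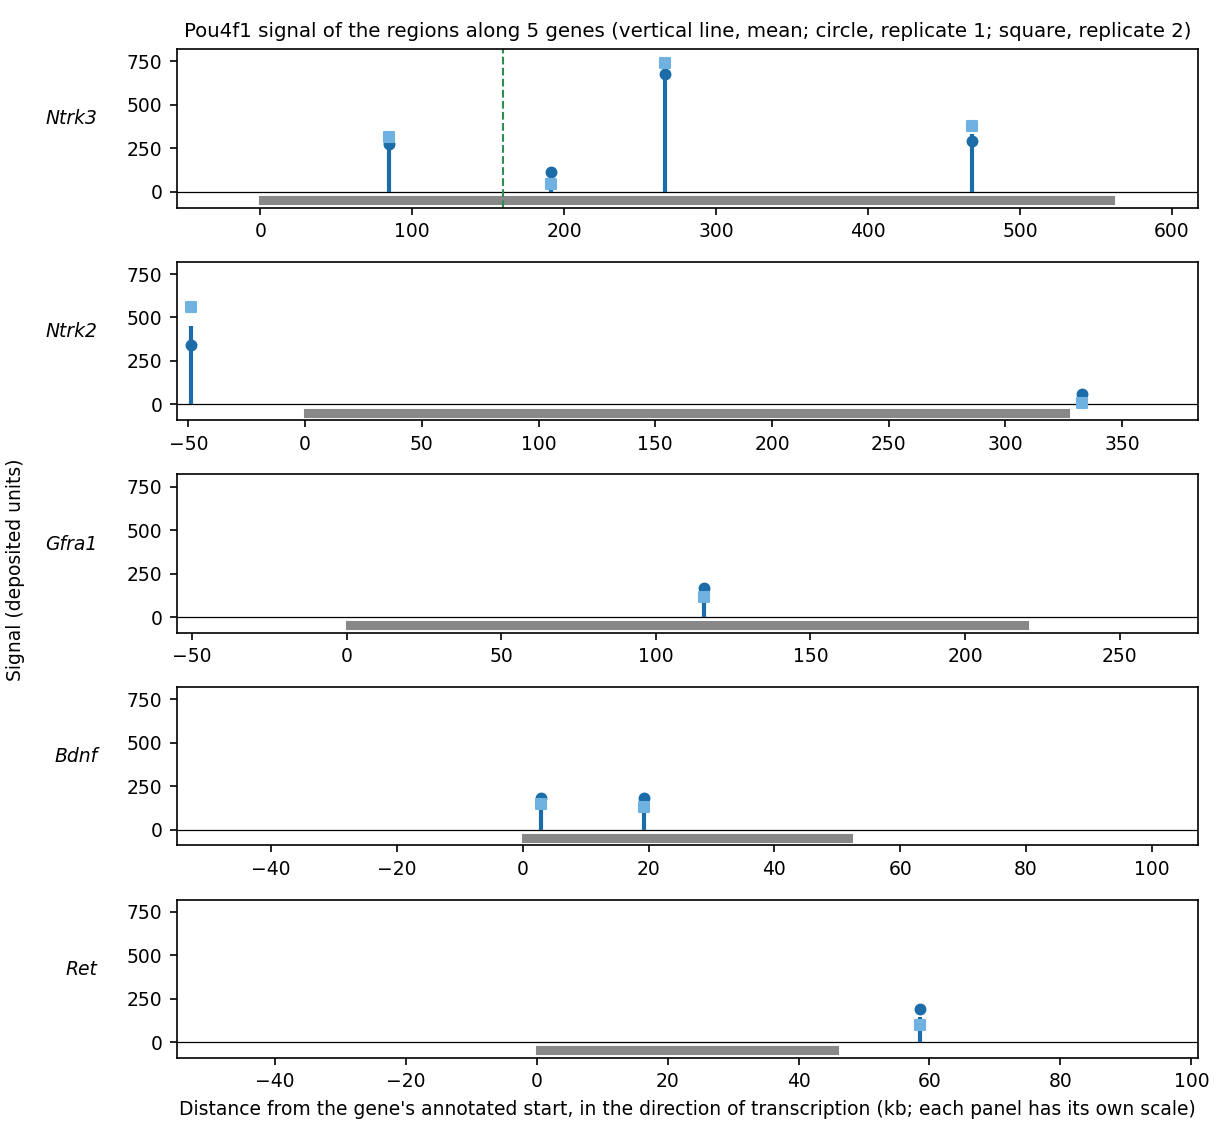
Pou4f1 signal of the regions (vertical axis, deposited units, the same in all 5 panels) against distance from the annotated gene start in the direction of transcription (horizontal axis, kb, a scale per panel). Grey bars are gene bodies, vertical lines the mean of 2 libraries, circles replicate 1, squares replicate 2, and the dashed line is the start of Ntrk3-201; the highest point is in intron 4 of Ntrk3 (679 and 738), and no line stands at the start of a gene body.

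Ntrk2 (ENSMUSG00000055254.15, chr13:58806569-59133970, plus strand) had the opposite arrangement, with none in its 327.4 kb body and a region on each side. The one before the gene, chr13:58757393-58758066, lay 48.8 kb upstream, inside the noncoding gene 4930455J16Rik, with its near edge 842 bp from the start of the pseudogene Rpl13-ps2. Its signal was 342 and 561 in Pou4f1 and 0 in both IgG libraries, and it was called higher (adjusted p = 0.00222, limma). By mean signal it ranked 490 of 8038 and was second among the 10 regions, though it lies close to the limit of distance used here and 2 other annotated genes are nearer. The distance cannot assign it to Ntrk2.

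Past the end of Ntrk2 by 4.9 kb, the region chr13:59138882-59139837 had a signal of 61.4 and 7.68 in Pou4f1 and of 7.34 and 0 in IgG. The 2 Pou4f1 libraries thus disagreed, and replicate 2 was almost level with the library named IgG. The log2 difference of 3.01 (SE 1.69) was not called (adjusted p = 0.173, limma), and the region ranked 8007, among the lowest of the table. It is repetitive. A tandem array of a 36 bp unit, about 27.6 copies over chr13:59138942-59139934, covered 93.7% of the region, and 90.4% of its bases equalled the base 36 positions on. The commonest unit recurred exactly 7 times. Regions in which at least 75% of bases repeat at some period made up 1.31% of the table and 3.51% of those away from starts. The part of read placement in this signal was not tested.

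Ngfr (ENSMUSG00000000120.6, chr11:95568818-95587735, minus strand), the receptor shared by the neurotrophins, had no region within 50 kb. The closest, chr11:95384394-95385140, was 183.7 kb away over the start of Slc35b1, with 143 and 96.8 in Pou4f1 and 0 and 7.62 in IgG.

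In the GDNF receptor family, Ret (ENSMUSG00000030110.13, chr6:118151745-118197718, minus strand) had a single region, and it belongs by position to a neighbour. At chr6:118138872-118139569, 12.2 kb past the end of Ret, its midpoint was 80 bp from a start of Csgalnact2, an enzyme of chondroitin sulfate synthesis. The signal was 191 and 96.7 in Pou4f1 against 0 and 19.6 in IgG. The log2 difference of 4.91 (SE 1.80) did not pass (adjusted p = 0.0804, limma), and the region ranked 5032.

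Gfra1 (ENSMUSG00000025089.15, chr19:58235604-58455909, minus strand), the co-receptor for GDNF, had a region in intron 5 of Gfra1-201 at chr19:58339740-58340587, 115.7 kb from the gene start. It gave 166 and 113 in Pou4f1 and 0 in both IgG libraries and was called higher (adjusted p = 0.00229, limma). Its level was modest, at rank 5206 of all regions and 2112 of the 2881 away from starts. It was the only one of the 4 regions with a POU consensus match in which replicate 1 exceeded replicate 2. Gfra2 (ENSMUSG00000022103.10, chr14:70890120-70979838, plus strand), the co-receptor for neurturin, had none. The nearest region to it, chr14:71095109-71095702, 115.3 kb away, had 173 and 179 in Pou4f1 and 0 in both IgG libraries.

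The 3 regions that did not pass, those past Ntrk2, in intron 1 of Ntrk3 and near Ret, each had 1 IgG library at 0 and the other not. Their IgG values above 0 correspond to 92, 240 and 154 covered bases in that order, where a single pair of reads gives about 160. With the library named IgG left out the adjusted p was 1.02e-09, 4.43e-17 and 0.000231, and with the one named negative control left out it was 0.0440, 0.00238 and 9.81e-22, in that order. Each such fit has a lone IgG library that is assumed to vary like the Pou4f1 pair, and 94.4% and 95.9% of all regions were called higher in them. A pseudocount of 10 also brought the intron 1 and Ret regions past the threshold (adjusted p = 0.0247 and 0.0134), with 92.6% of all regions called higher.

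By mean Pou4f1 signal, the 10 regions ran from rank 102 to rank 8007, nearly the whole table, with 4 above and 6 below its median of 173. The 4 highest, 3 at Ntrk3 and 1 before Ntrk2, all had midpoints more than 1 kb from a transcription start and ranged in mean from 294 to 709. Next came the Bdnf pair, Ret and Gfra1, from 140 to 165. Neighbours within this second set differed by less than the gap between their own 2 replicates, so their order is not resolved. The same holds for the Ntrk3 regions in intron 12 and upstream of Ntrk3-201.

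**Figure D3:**
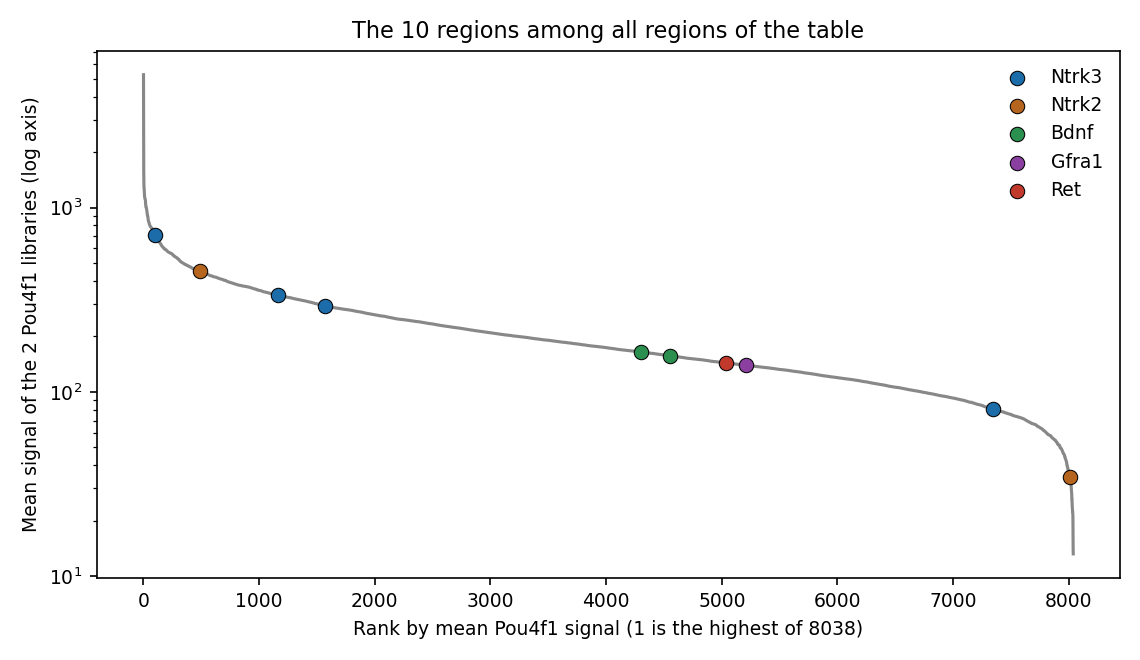
Mean signal of the 2 Pou4f1 libraries (log axis, deposited units) against rank for all 8038 regions (grey line), with the 10 regions as points coloured by gene. Ntrk3 and Ntrk2 each have points near both ends, from rank 102 to 7342 and from 490 to 8007, and the Bdnf, Ret and Gfra1 points lie between ranks 4299 and 5206.

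In sequence and position the regions formed 2 kinds. The midpoint of 3 of the 10 (30%, 95% exact Clopper-Pearson interval 6.67 to 65.2) was within 1 kb of a transcription start, the 2 at Bdnf and the one near Ret, against 64.1% of all regions. Their GC content was 62.0%, 61.4% and 65.6%, near the median of 62.7% over regions at starts, and none held the POU consensus, which occurs in 2.70% of regions at starts. The other 7 had a GC content from 43.8% to 51.1%, around the median of 49.0% over regions away from starts, and 4 of these 7 (57.1%, interval 18.4 to 90.1) held the consensus, against 26.1% of such regions. Over all 10 the share was 40%, against 11.1% of the table. With so few regions the interval is wide and contains the share of regions away from starts. With a midpoint within 3 kb, or any base within 1 kb, 4 of the 10 (40%) were near a start. The region before Ntrk2 was the one added.

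The matches lay 76 bp from the midpoint in the region before Ntrk2, 249 and 212 bp in the Ntrk3 regions and 104 bp in the Gfra1 region. Only the one before Ntrk2 was in the central 200 bp, so 1 of 10 regions (10%) had such a match. The share was 4.38% over all regions and 11.0% over those away from starts. The match upstream of Ntrk3-201 overlaps TAATTA, a core bound by many homeodomain proteins. A match is a description of letters and not a site, and no match in the strongest region says only that these letters are not in it. Places with at most 1 mismatch are common, being present in 5 of the 10 regions, 34.4% of all regions and 69.7% of those away from starts. None of the RefSeq promoters found for these genes (GRCm38.p6, short windows around a start; 7 for Bdnf, 2 for Ntf3, and 1 each for Ntrk2, Ngfr and Gfra1) held the consensus, as in most of the 32851 in the table, of which 0.868% did.

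**Figure D4:**
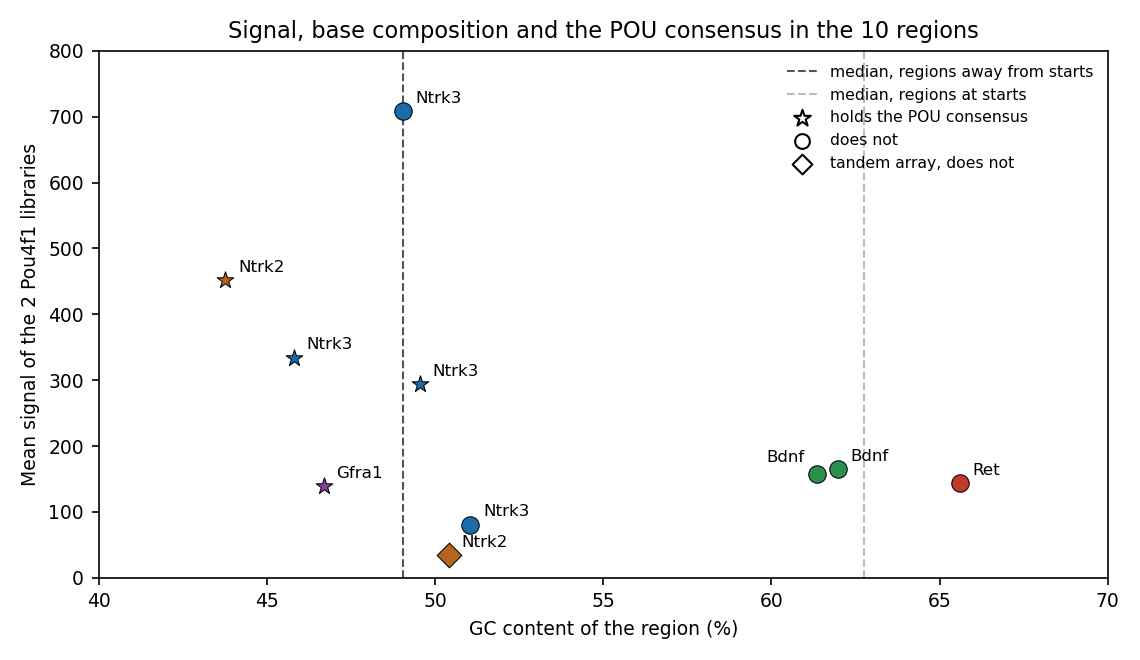
Mean signal of the 2 Pou4f1 libraries (vertical axis, deposited units) against GC content (horizontal axis, %) for the 10 regions, labelled by gene, with stars for regions holding the POU consensus, circles for those without and a diamond for the tandem array. Dashed lines are the medians of all regions away from starts (49.0%) and at starts (62.7%); the 4 stars lie between 43.8% and 49.6% GC, the Bdnf and Ret points beyond 61%, and the highest point is a circle.

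To place these loci in their pathway, 53 further genes were taken from a fixed list of ligands, receptors and signal transducers of the neurotrophin and GDNF families. Of these, 40 (75.5%) had a region within 50 kb, against 53.6% of all protein-coding genes. The 40 genes shared 73 regions, of which 40 (54.8%, against 64.8% of all regions) were called higher and 0 lower. Of the 73, 61 lay within 1 kb of a transcription start of any gene, a higher share than the 64.1% over all regions. Of the 5 ligands 4 had a region nearby, but none in the gene body, and all 7 of these regions were at starts. Among the 11 receptors and co-receptors 8 had one, 6 of them in the body, with 9 of 12 regions called higher. Of the 37 transducers 28 had one, with 26 of 54 called higher. Gdnf, the founding ligand of its family, had none within 50 kb.

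The 5 list genes whose nearest region had the highest mean Pou4f1 signal were Ncam1, Creb1, Rapgef1, Akt1 and Bex3. Ncam1, an adhesion molecule that also serves as a GDNF co-receptor, had a region in its body at chr9:49606096-49606839. Its Pou4f1 signal was 402 and 430, while IgG gave 0 and 8.96 (adjusted p = 0.0267, limma). It was the only one of the 5 that is a receptor, and at rank 639 it was below the Ntrk3 intron 4 region and the one before Ntrk2. The region over the start of Creb1, a transcription factor activated downstream of Trk kinases, had 460 and 331 against 13.1 and 30.0 (adjusted p = 0.0146). Rapgef1, an exchange factor for Rap GTPases, had its region 33.1 kb outside the gene, with 257 and 503 against 12.5 and 29.2 (adjusted p = 0.0202). For Akt1, a survival kinase, the region was 8.2 kb off at the start of Siva1, with 390 and 268 against 12.7 and 14.8 (adjusted p = 0.00606). Bex3, which binds the intracellular part of the Ngfr receptor, had 292 and 339 against 0 and 0 over its start (adjusted p = 0.00222).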

How the data were processed

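Wild-type E16.5 retinas were profiled by CUT&Tag. The authors aligned the paired reads to mm10 with Bowtie2 2.4.5, called regions with SEACR and deposited a table with a signal value per region and library, named as read counts. The values are not whole numbers, so no count model was used. The scaling, the depth and any pooling of replicates before calling were not stated by the labels or methods. The column named only negative, given above as negative control, was taken as the other IgG library by inference, since rabbit IgG was the negative control of the study. Starts were raised by 1 base.

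Genes came from GENCODE M21 and bases from GRCm38. Pou4f1 was compared with IgG on log2(signal + 1) with limma 3.58.1 (R 4.3.3), with no covariate, and p-values were adjusted over all regions. The procedure was tested on simulated data. Intervals are 95% exact binomial and cover counting error only. No alignment of a region to the chromosomes lay wholly outside that region (blastn 2.17.0). The region past the end of Ntrk2 had 3 alignments of 79 bp or more at 95% identity that overlapped it and ran beyond its edge. The genes and lists were chosen with earlier results of these data known. All regions and genes of the set were named, and of the wider list the 5 with the highest nearest signal. Some genes of the wider list are not reported here, and no count includes them. Alternatives were pseudocounts, scalings, a filter, a trend, each library left out, distances and motif forms.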

Additional observations from a re-analysis of the deposited data

How the results depend on the processing

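No region reversed its direction. Over the 10 regions and 11 alternative fits, 90 of 110 values kept their side of the threshold, 12 lost the call and 8 gained one. The count of 7 calls was 4 with column totals as library sizes and 4 with IgG taken as 4 times shallower, and ranged from 5 to 10 when each library was left out, the 10 being without either IgG library. The median log2 difference of 5.54 was 7.23 with a pseudocount of 0.1, 3.83 with 10, 3.21 with column totals (2.74 over all regions, from 5.22), 4.57 with IgG 4 times shallower and 4.33 without the regions at 0 in both IgG libraries, and ranged from 5.38 to 7.10 when each library was left out, 7.10 being without the one named negative control. The share with the consensus fell from 40% to 10% in the central 200 bp, and was 10% for TAATTA (14.1% of all regions) and 10% for CTAATGG or CTAATTG (12.7% of all; chosen after seeing the data, as were the E-box CAGATG, at 60% against 43.7% of all, the mismatch search and the values without zero controls or the array). The cause was not tested. Calls over the table were 5205 higher, 3492 with a pseudocount of 0.1, 1821 with column totals, 2949 and 2152 with IgG 2 and 4 times shallower, and 2360 and 2484 without Pou4f1 replicate 1 and 2, 7587 without the library named IgG, 7710 without the one named negative control and 7443 with a pseudocount of 10. The column totals covered only the called Pou4f1 regions, so scaling by them lowers the difference by construction. Regions at 0 in both IgG libraries have no spread in the control, so their stable calls are no sign of precision. No paired analysis was possible because the IgG columns carry no replicate number. The depth of the libraries was not stated. Their unequal steps, read as 1 base covered by 1 read, mean that the values had already been scaled by library.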
